A study of Mus musculus with 15 samples.

Results

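Expression of 7 target genes of the transcription factor Nrf2 and of the 3 superoxide dismutases was followed in mouse chondrocytes treated with 4 inhibitors. The 10 genes were Hmox1, Nqo1, Gclm, Gclc, Srxn1, Txnrd1, Gsr, Sod1, Sod2 and Sod3, taken by name. They were covered by 26 of the 45101 probe sets of the array, all those that the platform annotation maps to 1 of these symbols, and they made up 10 of the 18193 genes that the annotation names in this way. Of the 26 probe sets, 24 reached a mean signal of 50 in at least 1 treatment and were tested, and each of the 10 genes kept at least 1 probe set.

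Nrf2 (gene Nfe2l2) is held in the cytoplasm and marked for degradation by Keap1. When oxidants or electrophiles modify Keap1, Nrf2 accumulates in the nucleus and, with a small Maf protein, activates genes that carry an antioxidant response element. Its targets supply glutathione (Gclc, Gclm, Gsr), maintain thioredoxin and peroxiredoxin (Txnrd1, Srxn1), and degrade haem and quinones (Hmox1, Nqo1). The superoxide dismutases convert superoxide to hydrogen peroxide in the cytosol (Sod1), the mitochondria (Sod2) and the extracellular matrix (Sod3), and Sod3 protein is abundant in cartilage.

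Primary chondrocytes were taken from the limb cartilage of embryonic day 15.5 mice of the CD1 strain, freed with collagenase and plated as monolayers. RNA was hybridized to Affymetrix whole-genome mouse arrays, with 3 arrays in each of 5 groups described as biological replicates from independent experiments. Cells received TSA (trichostatin A, a histone deacetylase inhibitor), LY294002 (which inhibits PI3K), UO126 (which inhibits MEK, the kinase upstream of ERK), SB202190 (a compound known to inhibit p38) or the vehicle DMSO. All cultures were in fresh medium with ascorbic acid and β-glycerophosphate for 24 hours, although the labels of LY294002 replicate 1 and UO126 replicate 1 read up to 24 hours. LY294002, UO126 and SB202190 were each used at 10 µM, whereas the unit of the TSA dose cannot be read from the labels, so TSA was compared with DMSO alone.

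Values are MAS5 signals, which are linear and scaled so that the mean of each array is 150 once the lowest and highest 2% of values are dropped. They are therefore relative to the other transcripts on the same array, and a change in total RNA per cell would not be seen. The median signal was between 29.8 and 40 on the 15 arrays. Arrays of a group correlated at 0.967 to 0.981 over the tested probe sets, whereas TSA arrays correlated with those of other groups at 0.836 to 0.866. All 7 chondrocyte markers had a mean signal of at least 50 in all 5 groups. With TSA, however, 6 of the 7 were lower than with DMSO, the exception being Col2a1, and their summed signal was 10400 to 11900 with TSA and 16100 to 24600 with DMSO. None of the 7 passed the test with LY294002, UO126 or SB202190. Of the 7 macrophage markers tested (of 12), 6 were lower with TSA and Cd68 was higher (4.31-fold), and the 12 summed to 588 to 718 with TSA and 854 to 977 with DMSO. Of the 3 smooth muscle markers tested (of 4), Acta2 and Tagln were lower with TSA and higher with UO126, and Cnn1 was lower with SB202190 (-2.40 ± 0.44, adjusted p = 0.0099). The 4 summed to 2940 to 3450 with TSA, 7110 to 8240 with UO126, 4650 to 4980 with SB202190, and 4540 to 5870 with DMSO. Of the 4 fibroblast markers, Col3a1 and Dcn were lower with TSA and none passed with another inhibitor, with sums of 7260 to 8710 with TSA and 9050 to 13100 with DMSO. Only 1 of 4 endothelial markers was tested, and it passed with no inhibitor. Of all genes tested, 30.6% were higher and 28.4% lower with TSA, 1.88% higher with UO126 and 1.51% lower with SB202190. The 2 erythroid markers on the array were below a signal of 50 in every group. A lower signal can reflect fewer cells of a type or less RNA per cell, and on these arrays the alternatives cannot be told apart. The part of these shifts in the results below was not tested.

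Promoter sequence in the RefSeq tables of build GRCm38.p6 was found for 6 of the 10 genes. Windows of 300 bases, with 250 bases before and 50 after the transcription start, were searched on both strands for TGACNNNGC, the core of the antioxidant response element, and for TGAGTCA, the AP-1 site that can lie inside such elements. No match of one motif overlapped a match of the other, but sequences with G in place of the C of TGACNNNGC were not searched for. The 150 bases before the start are shown for the 4 genes with a match in this stretch, 3 of them genes up-regulated by TSA and SB202190 and 1 of them (Sod1) a gene that passed no test. Capitals mark the matches, and each sequence is on the plus strand, 5′ to 3′.
Srxn1, chr2:152105374-152105523: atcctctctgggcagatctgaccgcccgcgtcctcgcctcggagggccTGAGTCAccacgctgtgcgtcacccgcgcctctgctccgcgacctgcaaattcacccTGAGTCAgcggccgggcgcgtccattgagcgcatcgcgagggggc
Gclm, chr3:122245407-122245556: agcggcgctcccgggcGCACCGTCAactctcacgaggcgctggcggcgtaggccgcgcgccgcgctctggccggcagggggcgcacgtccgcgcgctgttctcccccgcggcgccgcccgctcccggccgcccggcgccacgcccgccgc
Txnrd1, chr10:82859056-82859205: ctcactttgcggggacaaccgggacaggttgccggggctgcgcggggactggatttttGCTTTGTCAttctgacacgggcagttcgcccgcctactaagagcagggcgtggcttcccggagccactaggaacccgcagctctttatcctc
Sod1, chr16:90220612-90220761: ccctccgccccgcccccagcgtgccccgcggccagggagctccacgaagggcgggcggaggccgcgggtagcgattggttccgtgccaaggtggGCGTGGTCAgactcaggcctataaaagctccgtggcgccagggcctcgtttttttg
Srxn1 carried TGAGTCA at 102 and at 45 bases before its start, and a match to TGACNNNGC on the opposite strand 29 bases after it. The TGAGTCA at 45 bases is followed by gc, so this stretch differs from TGACNNNGC only by G in place of C. Gclm, Txnrd1 and Sod1 each carried 1 match to TGACNNNGC on the opposite strand, which began 134, 92 and 56 bases before the start. For Txnrd1 this holds for 1 of 3 annotated starts. The windows of Nqo1 and Sod2 held neither motif. Over all 32851 windows of this length, 12.4% held TGACNNNGC and 5.2% held TGAGTCA. A match of letters is given as a description and does not show that a factor binds there.

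TSA up-regulated all 7 Nrf2 targets and Sod2, did not detectably change Sod1, and down-regulated Sod3. SB202190 up-regulated 5 of the 7 targets (Hmox1, Gclm, Gclc, Srxn1 and Txnrd1) and also down-regulated Sod3. UO126 up-regulated Srxn1 alone, and with LY294002 no member passed the test. These calls come from the main fit, which has no block on replicate number. In the fit blocked on replicate number, Nqo1 was also higher (adjusted p = 0.0348) and Sod3 lower (adjusted p = 0.0231) with UO126. The plot of signals on each array shows the levels of the probe set with the highest mean log2 signal of each gene, which represents the gene throughout.

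**Figure D1:**
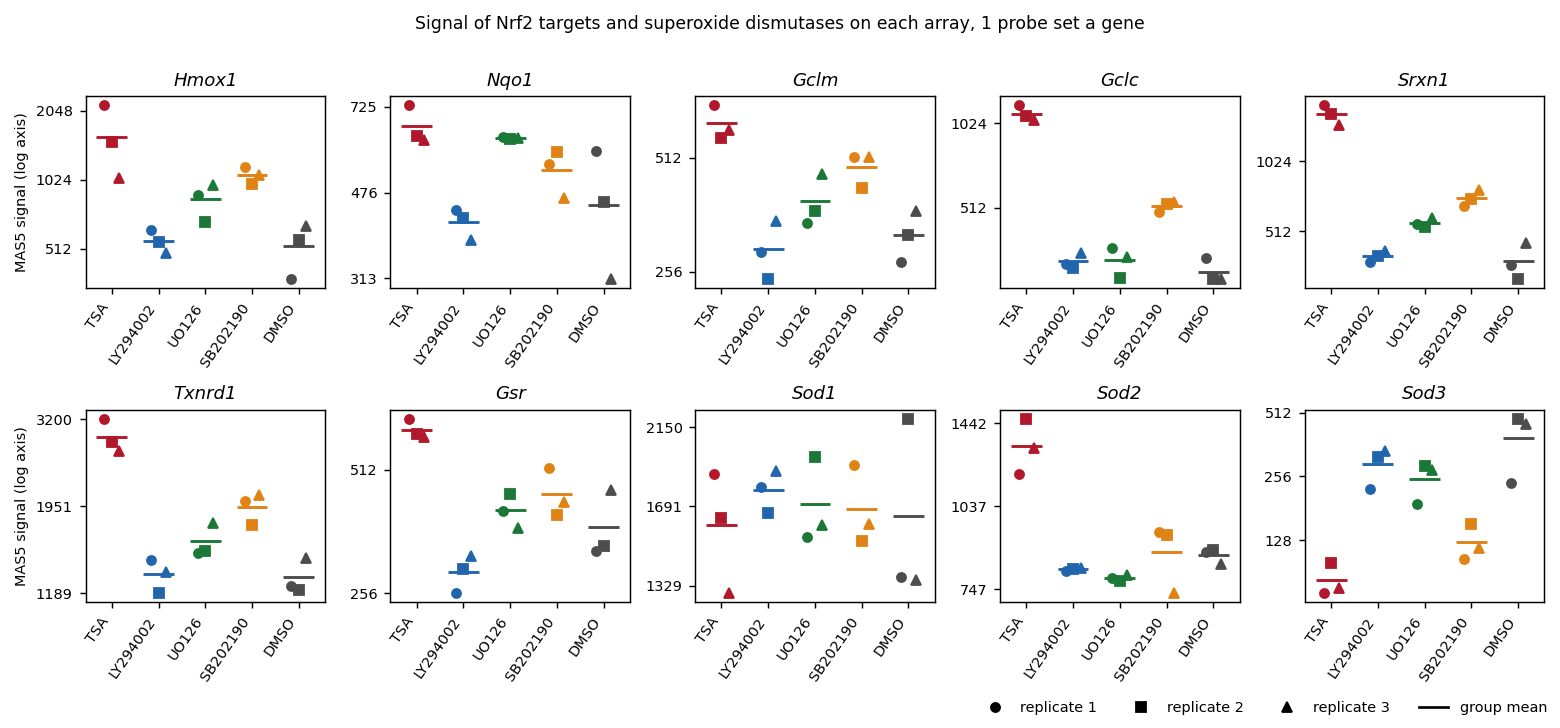
MAS5 signal on a log axis for the representative probe set of each of the 10 genes, with 1 point per array (marker shape gives the replicate number) and a line at the mean of each group of 3. TSA arrays lie above all DMSO arrays for the 7 Nrf2 targets and Sod2 and below them for Sod3, SB202190 arrays take an intermediate place for Gclc, Srxn1, Txnrd1 and Sod3, and the groups overlap for Sod1.

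Under TSA, 8 of the 10 genes were higher than with DMSO, in a comparison where 3593 of 11751 genes (30.6%) were higher, and 1 was lower, where 3333 (28.4%) were lower. With SB202190, 5 were higher against a background of 2.01% of genes, and 1 was lower against 1.51%. With UO126, 1 was higher (background 1.88%) and 0 were lower (background 1.57%), and with LY294002, 0 were higher (5.63%) and 0 lower (3.84%). Taking p below 0.05 before adjustment, 1 gene was lower with LY294002 (Gsr), and 4 genes were higher and 1 lower with UO126. The share of all genes at this looser threshold was not counted, and the backgrounds above are for adjusted p. The median log2 change of the 7 Nrf2 targets was 1.15 with TSA, 0.02 with LY294002, 0.30 with UO126 and 0.61 with SB202190, and the medians over all genes tested were 0.00, 0.01, 0.01 and 0.03. The 4 comparisons share the DMSO arrays, so their values are given side by side and are not independent of each other.

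Gclc encodes the catalytic subunit of glutamate-cysteine ligase, the rate-limiting enzyme of glutathione synthesis. Its signal was 1188, 1084 and 1049 on the TSA arrays, 322, 313 and 354 with LY294002, 368, 288 and 342 with UO126, 493, 526 and 535 with SB202190, and 339, 284 and 285 with DMSO. TSA arrays were highest and SB202190 arrays next, with no overlap between these groups or with DMSO, while LY294002 and UO126 arrays overlapped DMSO. The log2 change against DMSO was 1.87 ± 0.10 with TSA (SE, 3.66-fold, adjusted p = 1.06e-09) and 0.78 ± 0.10 with SB202190 (1.71-fold, adjusted p = 0.000769). With LY294002 it was 0.12 ± 0.10 (adjusted p = 0.504, 95% interval -0.09 to 0.34), and with UO126 it was 0.13 ± 0.10 (adjusted p = 0.632, interval -0.08 to 0.35). The other Gclc probe set was also higher with TSA (1.39 ± 0.12, adjusted p = 1.22e-07), but its change with SB202190 was 0.38 ± 0.12 and did not pass (adjusted p = 0.109).

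Gclm encodes the modifier subunit of the same ligase. Its representative probe set gave 707, 580 and 608 with TSA, 289, 244 and 348 with LY294002, 345, 371 and 465 with UO126, 514, 427 and 516 with SB202190, and 271, 319 and 370 with DMSO. All TSA and all SB202190 arrays were above all DMSO arrays, and the UO126 arrays overlapped both SB202190 and DMSO. The log2 change was 0.99 ± 0.15 with TSA (1.98-fold, adjusted p = 4.78e-05) and 0.61 ± 0.15 with SB202190 (1.52-fold, adjusted p = 0.0419). The SB202190 call was lost in 10 of 16 alternatives, at log2 changes of 0.49 to 0.70. It was lost without SB202190 replicate 1, 2 or 3 or DMSO replicate 1 or 2 (adjusted p = 0.0662 to 0.154), and with quantile normalization (0.0516), centring on the array median (0.096), no filter (0.0848), no variance trend (0.0751) or the SB202190 and DMSO arrays fitted alone (0.0778). The dimmer Gclm probe set gave 221, 167 and 201 with SB202190 and 107, 80.6 and 122 with DMSO, with a log2 change of 0.94 ± 0.15 (adjusted p = 0.00301).

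Gsr encodes glutathione reductase, which returns oxidized glutathione to its reduced form with NADPH. Its signal was 681, 625 and 616 with TSA, 256, 293 and 315 with LY294002, 407, 446 and 370 with UO126, 518, 397 and 427 with SB202190, and 325, 333 and 456 with DMSO. TSA arrays were above and LY294002 arrays below every DMSO array, and the other groups overlapped DMSO. The change with TSA was 0.80 ± 0.13 (1.75-fold, adjusted p = 0.000115), whereas that with LY294002 was -0.35 ± 0.13 and did not pass (adjusted p = 0.118, interval -0.64 to -0.07). The second Gsr probe set did not pass with TSA (0.24 ± 0.13, adjusted p = 0.145) or with LY294002 (-0.42 ± 0.13, adjusted p = 0.0689), so the TSA call on Gsr rests on 1 of 2 probe sets.

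Txnrd1 encodes the cytosolic thioredoxin reductase. Its signal was 3206, 2811 and 2671 with TSA, 1440, 1190 and 1343 with LY294002, 1499, 1516 and 1779 with UO126, 2006, 1755 and 2077 with SB202190, and 1241, 1213 and 1458 with DMSO. TSA, SB202190 and UO126 arrays were all above the highest DMSO array, the UO126 arrays by a small margin, and LY294002 arrays overlapped DMSO. The log2 change was 1.15 ± 0.11 with TSA (2.22-fold, adjusted p = 2.96e-07) and 0.58 ± 0.11 with SB202190 (1.49-fold, adjusted p = 0.0099). With UO126 it was 0.29 ± 0.11 (adjusted p = 0.206). The SB202190 call was lost without SB202190 replicate 1 (adjusted p = 0.0514) and after centring on the array median (0.0706). The 2 dimmer Txnrd1 probe sets were higher with TSA (1.01 ± 0.24 and 0.79 ± 0.28), but their SB202190 values of 0.19 ± 0.24 and 0.35 ± 0.28 did not pass.

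Srxn1 encodes sulfiredoxin, which repairs overoxidized peroxiredoxins, and it had the largest rise with TSA among the 10 genes. Its signal was 1787, 1636 and 1466 with TSA, 379, 400 and 421 with LY294002, 550, 533 and 586 with UO126, 655, 706 and 772 with SB202190, and 366, 318 and 456 with DMSO. The TSA, SB202190 and UO126 groups were stepped, with no overlap between any of these and DMSO, and only LY294002 arrays overlapped DMSO. The log2 change was 2.11 ± 0.12 with TSA (4.32-fold, adjusted p = 1.12e-09), 0.56 ± 0.12 with UO126 (1.48-fold, adjusted p = 0.0145) and 0.92 ± 0.12 with SB202190 (1.89-fold, adjusted p = 0.000531). With LY294002 it was 0.09 ± 0.12 (adjusted p = 0.691, interval -0.16 to 0.34). The UO126 call was lost without UO126 replicate 3 (adjusted p = 0.0696), DMSO replicate 1 (0.0509) or DMSO replicate 2 (0.0712), and when the UO126 and DMSO arrays were fitted alone (0.102). A second and a further Srxn1 probe set were also higher with TSA (2.16 ± 0.16 and 1.92 ± 0.19) and SB202190 (0.85 ± 0.16 and 1.12 ± 0.19), while neither passed with UO126 (0.42 ± 0.16 and 0.57 ± 0.19). The fourth probe set had means of 74.1 with TSA, 22.3 with SB202190 and 38.8 with DMSO and passed in no comparison with DMSO. The promoter with the paired TGAGTCA matches printed above is that of Srxn1.

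Hmox1 encodes haem oxygenase 1, which cleaves haem to biliverdin, iron and carbon monoxide. Its signal was 2173, 1506 and 1040 with TSA, 621, 547 and 489 with LY294002, 882, 672 and 969 with UO126, 1162, 979 and 1073 with SB202190, and 376, 560 and 646 with DMSO. TSA, UO126 and SB202190 arrays were all above the highest DMSO array, TSA replicate 3 fell within the SB202190 range, and LY294002 arrays overlapped DMSO. The log2 change was 1.55 ± 0.23 with TSA (2.92-fold, adjusted p = 3.67e-05) and 1.06 ± 0.23 with SB202190 (2.08-fold, adjusted p = 0.0231). With UO126 it was 0.69 ± 0.23 (1.62-fold, adjusted p = 0.153), and with LY294002 it was 0.10 ± 0.23 (adjusted p = 0.846). The SB202190 call was lost without SB202190 replicate 1, 2 or 3 or DMSO replicate 1 or 2 (adjusted p = 0.0553 to 0.0966), at log2 changes of 0.83 to 1.12.

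Nqo1 encodes a quinone reductase that is a classical readout of Nrf2. Its signal was 731, 628 and 617 with TSA, 437, 421 and 378 with LY294002, 624, 618 and 621 with UO126, 548, 581 and 464 with SB202190, and 583, 454 and 311 with DMSO. The DMSO arrays spread over the widest range (449 ± 136, SD), and only TSA and UO126 arrays were all above them. With TSA the log2 change was 0.59 ± 0.16 (1.51-fold, adjusted p = 0.00611), the smallest called rise among the 7 targets. It still passed without DMSO replicate 3, the lowest array of that group, but at a log2 change of 0.35 (adjusted p = 0.0279). With UO126 it was 0.51 ± 0.16 and did not pass (1.43-fold, adjusted p = 0.134). In the fit blocked on replicate number the UO126 value passed (adjusted p = 0.0348), as it did without DMSO replicate 1 (0.72, adjusted p = 0.0155). SB202190 gave 0.28 ± 0.16 (adjusted p = 0.434, interval -0.07 to 0.63).

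**Figure D2:**
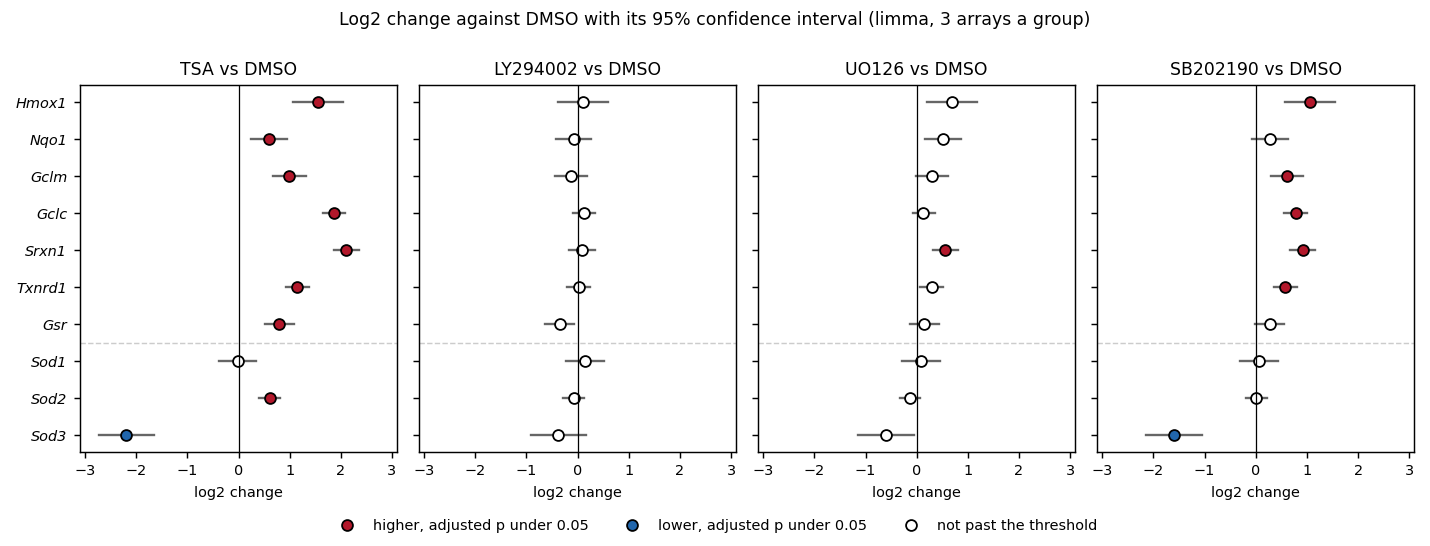
Log2 change against DMSO for the 10 genes in 4 panels, 1 per inhibitor, with bars for the 95% confidence interval from limma (3 arrays a group); filled points passed an adjusted p of 0.05 (red higher, blue lower). Filled points number 9 with TSA, 0 with LY294002, 1 with UO126 and 6 with SB202190, and Sod3 lies at -2.19 with TSA and -1.60 with SB202190.

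The 3 superoxide dismutases gave 3 different results with TSA. Sod1 gave 1867, 1635 and 1300 with TSA, 1794, 1660 and 1884 with LY294002, 1543, 1963 and 1599 with UO126, 1916, 1521 and 1603 with SB202190, and 1367, 2204 and 1355 with DMSO. All groups overlapped, and the DMSO arrays had the largest spread (1642 ± 487, SD). The log2 change was between -0.01 and 0.15 in the 4 comparisons with DMSO, with an interval of -0.38 to 0.35 with TSA. None of the 4 tested Sod1 probe sets passed with any inhibitor. The fifth had group means between 6.16 and 13.5 and was not tested.

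Sod2, the manganese enzyme of mitochondria, gave 1181, 1466 and 1306 with TSA, 803, 810 and 813 with LY294002, 783, 774 and 790 with UO126, 938, 925 and 736 with SB202190, and 867, 874 and 826 with DMSO. TSA arrays were above all others, and LY294002 and UO126 arrays were narrowly below every DMSO array. With TSA the change was 0.62 ± 0.10 (1.53-fold, adjusted p = 5.22e-05). With LY294002 it was -0.08 ± 0.10 (adjusted p = 0.652), with UO126 -0.13 ± 0.10 (adjusted p = 0.61) and with SB202190 0.01 ± 0.10 (adjusted p = 0.982). The intervals of these 3 lay between -0.33 and 0.21. All 3 tested Sod2 probe sets were higher with TSA and none of them passed with another inhibitor. The fourth stayed under a mean of 50 in every group.

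Sod3, the extracellular enzyme, was the member with the largest fall. Its signal was 71.8, 100 and 76.4 with TSA, 222, 316 and 337 with LY294002, 189, 285 and 275 with UO126, 104, 152 and 118 with SB202190, and 239, 478 and 452 with DMSO. TSA arrays were lowest and SB202190 arrays next, both clear of the other 3 groups, while LY294002 and UO126 arrays overlapped DMSO replicate 1. The log2 change was -2.19 ± 0.25 with TSA (4.55-fold lower, adjusted p = 2.97e-06) and -1.60 ± 0.25 with SB202190 (3.02-fold lower, adjusted p = 0.00338). With LY294002 it was -0.38 ± 0.25 (adjusted p = 0.395), and with UO126 it was -0.60 ± 0.25 (adjusted p = 0.291), which passed in the fit blocked on replicate number (adjusted p = 0.0231). The second Sod3 probe set gave 7.93, 9.21 and 7.9 with TSA, 13.2, 17.8 and 12.5 with SB202190, and 114, 165 and 144 with DMSO. It was therefore lower with both as well (-4.07 ± 0.27 and -3.28 ± 0.27, adjusted p = 6.69e-09 and 8.78e-06), although its TSA and SB202190 signals were far under 50, where the size of a change is imprecise. Chondrocyte markers moved in the same direction as Sod3 with TSA and with SB202190. With TSA 6 of 7 were lower, at a median log2 change of -1.91. With SB202190 none of the 7 passed but all had negative changes (-0.43 to -0.01, median -0.28). The markers went the other way with UO126 and LY294002, where Sod3 values were negative but uncalled in the main fit. All 7 marker changes were positive with UO126 (median 0.39) and 6 of 7 with LY294002 (median 0.19), none of them called. Their sum was 16900 to 19200 with SB202190 and 16100 to 24600 with DMSO, and their part in the Sod3 result was not tested.

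Counted over probe sets, 16 of the 24 tested were higher and 2 lower with TSA, against 28.1% and 26.6% of all tested probe sets. With SB202190, 8 were higher and 2 lower, against 1.53% and 1.31%. With UO126, 1 was higher, against 1.36%, and 0 were lower, against 1.32%, and with LY294002, 0 were higher, against 4.45%, and 0 lower, against 3.33%. All called probe sets of a gene pointed the same way within a comparison. Some probe sets that failed where another of the gene was called were dim or carried the suffix _s_at or _x_at. These suffixes mark probes that may also match other transcripts. Others were neither, such as the second Gsr probe set (means of 340 with TSA and 285 with DMSO). Why they failed was not tested. The suffix _s_at is also that of the Srxn1 probe set with the highest signal.

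**Figure D3:**
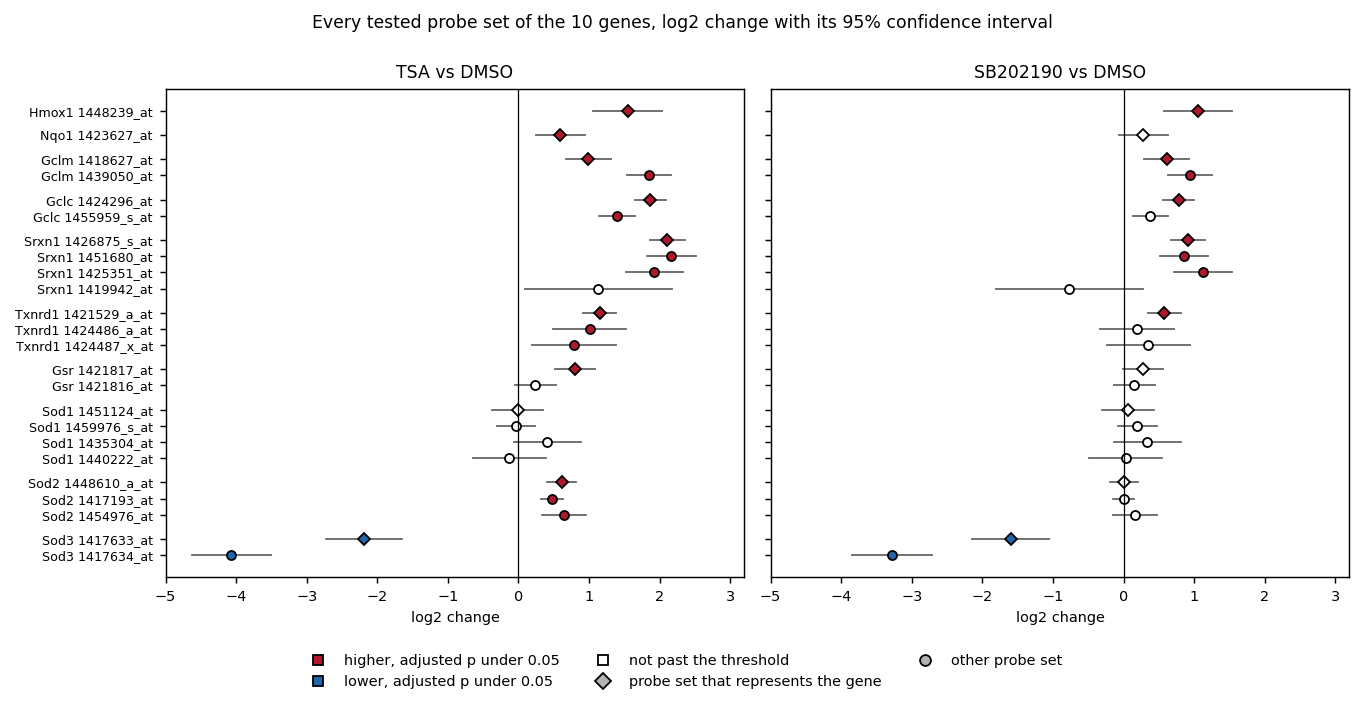
Log2 change against DMSO with its 95% confidence interval for each of the 24 tested probe sets, grouped by gene, with TSA on the left and SB202190 on the right; diamonds mark the probe set that represents the gene and filled symbols passed an adjusted p of 0.05. With TSA 16 probe sets are filled red and the 2 Sod3 probe sets blue, and with SB202190 8 are red and the same 2 are blue.

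By mean signal the groups ran TSA, SB202190, UO126, LY294002 and DMSO, high to low, for Hmox1, Gclc, Srxn1 and Txnrd1. Not all neighbours in this order were separate: LY294002 and DMSO arrays overlapped for all 4 of these genes, UO126 and LY294002 overlapped for Gclc, SB202190 and UO126 for Txnrd1, and TSA and SB202190 for Hmox1. Gclm and Gsr had the same order except that LY294002 was lowest, and Sod3 had the reverse order, from DMSO down to TSA. Nqo1 differed in that UO126 stood above SB202190, and its TSA and UO126 arrays overlapped. Over the 15 arrays, the log2 signals of Txnrd1 correlated at 0.98 with Srxn1, 0.96 with Gclm, 0.94 with Gclc and 0.92 with Hmox1, and at 0.59 with Nqo1 and -0.89 with Sod3. Among all 11750 other genes, the 3 with the highest correlation to Hmox1 were Txnrd1 (0.923), Stx8 (0.912) and Gclm (0.904), so 2 of the 3 were themselves members. For Nqo1 they were Zc4h2 (0.865), BC052040 (0.853) and Lrrn1 (0.851), for Sod2 Kyat1 (0.963), Susd3 (0.959) and Pkp2 (0.955), and for Sod3 Podn (0.947), Col6a1 (0.922) and Cd82 (0.92). These coefficients (Pearson) describe 15 arrays that share 5 treatments.

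The kinase inhibitors, used at the same dose and time, were also compared with each other in 3 pairs. LY294002 was lower than SB202190 for 6 of the 10 genes, where 3.77% of all genes were lower, and higher for 1, where 3.61% were higher. The 6 were Srxn1 (-0.83 ± 0.12, adjusted p = 0.000733), Gclc (-0.65 ± 0.10, adjusted p = 0.0015), Txnrd1 (-0.56 ± 0.11, adjusted p = 0.00606), Gclm (-0.74 ± 0.15, adjusted p = 0.00859), Gsr (-0.63 ± 0.13, adjusted p = 0.0109) and Hmox1 (-0.96 ± 0.23, adjusted p = 0.0216). The gene higher with LY294002 was Sod3 (1.22 ± 0.25, adjusted p = 0.00952), in a comparison where 2 of the 7 chondrocyte markers were also higher (median of the 7, 0.57). Single arrays decided some calls: Sod3 was lost without SB202190 replicate 1 (adjusted p = 0.0503), Gsr without LY294002 replicate 1 (0.0519) or SB202190 replicate 1 (0.0631), and Hmox1 without LY294002 replicate 2 or 3 or SB202190 replicate 1 or 3 (0.0619 to 0.0848). After every array was centred on its own median, 2 genes were lower in place of 6 (Srxn1 and Gclc).

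LY294002 was lower than UO126 for 3 of the 10 genes, where 3.82% of all genes were lower, and higher for 0, where 4.36% were higher. Srxn1 changed by -0.48 ± 0.12 (adjusted p = 0.0235), Gsr by -0.50 ± 0.13 (adjusted p = 0.0364) and Nqo1 by -0.59 ± 0.16 (adjusted p = 0.0424). Blocking on replicate number, Gclm passed as well (-0.43, adjusted p = 0.0369, against 0.105 without). Leaving out any 1 of the 6 arrays ended the call on Nqo1 (adjusted p = 0.0804 to 0.116), all but LY294002 replicate 3 ended that on Gsr (0.0513 to 0.143), and LY294002 replicate 1 or 2 or UO126 replicate 1 or 3 ended that on Srxn1 (0.0529 to 0.0891). Centring on the array median ended all 3 calls, and leaving out either the filter or the variance trend ended those on Nqo1 and Gsr.

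UO126 was lower than SB202190 for Gclc alone (-0.64 ± 0.10, adjusted p = 0.000973, where 4.78% of all genes were lower) and higher for Sod3 alone (1.00 ± 0.25, adjusted p = 0.0233, where 4.99% were higher). Chondrocyte markers moved with Sod3 here: 4 of the 7 were higher with UO126 and all 7 changes were positive (median 0.68), with sums of 22200 to 30400 with UO126 and 16900 to 19200 with SB202190. Their part in the Sod3 difference was not tested. Gclc arrays with UO126 (288 to 368) and SB202190 (493 to 535) did not overlap. The call on Sod3 was lost without UO126 replicate 2 or 3 or SB202190 replicate 1 or 3 (adjusted p = 0.0677 to 0.107). For Hmox1 the difference was -0.36 ± 0.23 (adjusted p = 0.416, interval -0.85 to 0.13) and for Srxn1 -0.35 ± 0.12 (adjusted p = 0.0794, interval -0.60 to -0.11). Srxn1 passed as lower with the replicate block (adjusted p = 0.0496) and with the 2 groups fitted alone (0.0481). Txnrd1 passed as lower with quantile normalization (-0.33, adjusted p = 0.0222).

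The upstream regulators of Nrf2 did not move as 1 group. Nfe2l2, which encodes Nrf2 itself, was higher with TSA (1320 ± 92.1 with TSA and 864 ± 30.7 with DMSO, log2 0.61 ± 0.10, adjusted p = 0.000133) and lower with UO126 (628 ± 62 with UO126, -0.46 ± 0.10, adjusted p = 0.0238). Keap1 was lower with TSA (213 ± 20.8 with TSA and 356 ± 43.8 with DMSO, -0.74 ± 0.11, adjusted p = 2.53e-05) and higher with SB202190 (471 ± 20.8 with SB202190, 0.41 ± 0.11, adjusted p = 0.0491). Bach1, a repressor at the same elements, passed with no inhibitor (0.02 ± 0.13 with TSA and 0.28 ± 0.13 with SB202190). Sqstm1, whose product p62 binds Keap1, was higher with TSA (0.76 ± 0.12, adjusted p = 5.3e-05), and Mafg, a small Maf partner, was lower with TSA (-0.41 ± 0.13) and higher with SB202190 (0.60 ± 0.13, adjusted p = 0.0223). The other small Maf genes listed, Mafk and Maff, were higher with TSA (0.85 ± 0.19 and 0.85 ± 0.22, adjusted p = 0.00123 and 0.00361). Of the 9 regulators, 4 were higher and 2 lower with TSA, 0 passed with LY294002, 1 was lower with UO126 and 2 were higher with SB202190. Of all genes tested, 30.6% were higher and 28.4% lower with TSA, and 5.63% and 3.84% with LY294002. These shares were 1.88% and 1.57% with UO126, and 2.01% and 1.51% with SB202190.

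Other genes of oxidant defence were counted over 7 lists, those regulators included, with 65 genes tested. With TSA 28 were higher and 17 lower, with LY294002 0 and 2, with UO126 4 and 3, and with SB202190 9 and 1. As shares of the 65 these were 43.1% higher and 26.2% lower with TSA (30.6% and 28.4% of all genes), 0% and 3.08% with LY294002 (5.63% and 3.84%), 6.15% and 4.62% with UO126 (1.88% and 1.57%), and 13.8% and 1.54% with SB202190 (2.01% and 1.51%). The counts of single lists below stand against the same shares of all genes. The median log2 change of the 65 genes was 0.02 with TSA, -0.04 with LY294002, 0.01 with UO126 and 0.13 with SB202190, so it stood near that of all genes with TSA, unlike the median of the 7 targets. Blocking on replicate number, the LY294002 counts were 2 higher and 7 lower. Without SB202190 replicate 1 or 3 or DMSO replicate 1 or 2, 0 genes were lower with SB202190, and without UO126 replicate 3 only 1 gene was higher with UO126.

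Among 17 genes of glutathione supply and transfer, 8 were higher and 5 lower with TSA and 3 were higher with SB202190. Gsta4, a glutathione transferase that handles lipid aldehydes, was higher with TSA (1640 ± 127 with TSA and 438 ± 48.9 with DMSO, log2 1.91 ± 0.10) and with SB202190 (714 ± 46.5 with SB202190, 0.71 ± 0.10, adjusted p = 0.00135), but lower with LY294002 (234 ± 22.6 with LY294002, -0.90 ± 0.10, adjusted p = 0.00017). Gstm1, another transferase, was higher with TSA (1.62 ± 0.13), UO126 (0.79 ± 0.13, adjusted p = 0.00255) and SB202190 (0.94 ± 0.13, adjusted p = 0.000896). Mgst1, a microsomal transferase, was higher with SB202190 (1.00 ± 0.15, adjusted p = 0.00212). Gpx7, a glutathione peroxidase of the endoplasmic reticulum, showed the largest fall of the lists with TSA (68.6 ± 7.73 with TSA and 674 ± 33.5 with DMSO, -3.30 ± 0.09), and Gss, glutathione synthetase, was lower with UO126 (-0.62 ± 0.09, adjusted p = 0.000824).

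In haem and iron metabolism, Blvrb (biliverdin reductase B, which acts downstream of haem oxygenase) was higher with 3 of the 4 inhibitors. Its means were 793 ± 25 with TSA, 180 ± 10.9 with UO126, 223 ± 12.9 with SB202190 and 121 ± 18.5 with DMSO, with log2 changes of 2.73 ± 0.12, 0.59 ± 0.12 and 0.90 ± 0.12 (adjusted p = 7.13e-11, 0.0109 and 0.000629). Blvra, the other reductase, was lower with TSA (-0.62 ± 0.09) and with LY294002 (-0.37 ± 0.09, adjusted p = 0.0201), and Hmox2, the constitutive haem oxygenase, was higher with TSA (0.69 ± 0.08). Slc40a1, the iron exporter ferroportin, was higher with UO126 (0.65 ± 0.15, adjusted p = 0.0291) and lower with SB202190 (-0.71 ± 0.15, adjusted p = 0.0193). Of the 6 genes tested here, 3 were higher and 2 lower with TSA.

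Among the suppliers of NADPH, on which Gsr, Txnrd1 and Nqo1 depend, 4 of 7 genes were higher and 2 lower with TSA. Taldo1 of the pentose phosphate pathway and malic enzyme Me1 were higher with TSA (1.07 ± 0.10 and 0.85 ± 0.09), Me1 also with UO126 (0.43 ± 0.09, adjusted p = 0.0212), and Idh1, isocitrate dehydrogenase, was lower with TSA (-0.92 ± 0.13). Pgd, 6-phosphogluconate dehydrogenase, was higher with SB202190 (0.40 ± 0.08, adjusted p = 0.014). In the thioredoxin, peroxiredoxin and glutaredoxin list of 11 genes, 3 were higher and 2 lower with TSA (27.3% and 18.2%, both below the shares of all genes) and none passed with another inhibitor. There Glrx, glutaredoxin 1, and Txnrd3, a further thioredoxin reductase, were higher with TSA (1.20 ± 0.10 and 0.85 ± 0.15, adjusted p = 5.43e-08 and 0.000214). Txnrd2, the mitochondrial thioredoxin reductase, was lower with TSA (-1.19 ± 0.19), the opposite direction to cytosolic Txnrd1. The Txnrd2 mean was 32.1 with TSA, a signal under 50, and 73.2 with DMSO.

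Of 7 quinone, carbonyl and xenobiotic enzymes, 3 were higher and 2 lower with TSA, where Cbr1, a carbonyl reductase, rose (0.73 ± 0.14) and Ephx1, microsomal epoxide hydrolase, fell (-0.91 ± 0.16), and 2 were higher with SB202190, namely Cbr3 (0.88 ± 0.15, adjusted p = 0.00503) and Aox1, aldehyde oxidase (0.96 ± 0.22, adjusted p = 0.0314). Osgin1, the oxidative stress-induced growth inhibitor, was also higher with TSA (80 ± 15.9 with TSA and 28.2 ± 4.01 with DMSO, 2.82-fold, adjusted p = 0.00046), at a signal under 50 with DMSO. In the list of peroxide removal, superoxide sources and sestrins, 3 of 8 genes were higher and 2 lower with TSA. Sesn3 was higher (0.99 ± 0.12), and both Cyba, a subunit of the NADPH oxidases, and Ccs, the copper chaperone of Sod1, were lower, Cyba with a log2 value that fell by 1.00 ± 0.10 and Ccs with a change of -0.57 ± 0.09. Nox4, an NADPH oxidase, and Cat, catalase, were higher with TSA (1.18 ± 0.22 and 0.47 ± 0.14). The Nox4 signal was under 50 with DMSO (29.4 ± 3.21). Xdh, xanthine dehydrogenase, was lower with UO126 (21.7 ± 7.49 with UO126 and 86.9 ± 9.5 with DMSO, -2.06 ± 0.24, adjusted p = 0.000213), at a signal under 50.

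**Figure D4:**
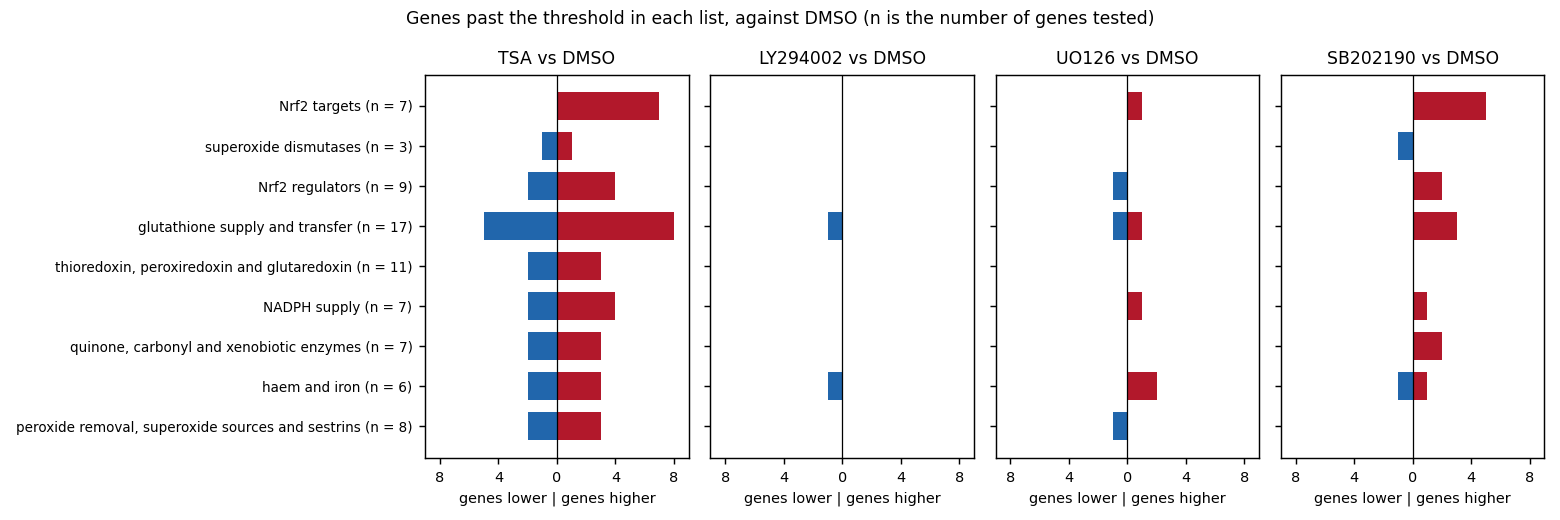
Number of genes past an adjusted p of 0.05 against DMSO in the 2 groups of members (top) and the 7 lists of other oxidant-defence genes, with genes higher to the right of 0 in red and genes lower to the left in blue, 1 panel per inhibitor. The 7 Nrf2 targets are all on the higher side with TSA and 5 of them with SB202190, whereas every other list with TSA holds genes on both sides.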

How the data were processed

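The authors deposited 1 table of MAS5 signal intensity for 15 arrays (version not given in the sources used here). Members and gene lists were chosen with earlier results of these data known. Named are all 10 members, up to 3 called genes of each list with the smallest p in each comparison with DMSO, Nfe2l2, Keap1 and Bach1. Mafk, Maff, Nox4 and Cat are named as well, to show genes of their lists that moved the other way with TSA. Of the probe sets, 932 with several symbols were not used for genes. Signals below 1 were raised to 1 before log2 transformation. All 5 groups were fitted with limma 3.58.1 in R 4.3.3 (empirical Bayes with a variance trend) on 21765 probe sets with a group mean of 50 in at least 1 group. Two-sided p-values were corrected (Benjamini-Hochberg) separately in each of 7 comparisons, with a threshold of 0.05. Errors are SD over arrays or SE of the fit, n = 3. The fit was tested on simulated data.

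Arrays of the same number were taken as paired if, for every number, their departures from the group mean had a correlation over 0.1, which held for LY294002 with DMSO (0.16 to 0.42), UO126 with DMSO (0.22 to 0.42) and LY294002 with UO126 (0.17 to 0.34). All main values come from the fit without a replicate block, also for these pairs. Each comparison was refitted under 16 alternatives, and blocking on replicate number was among them. Precision is limited by the number of arrays.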

Additional observations from a re-analysis of the deposited data

How the results depend on the processing

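The 9 calls with TSA and those on Gclc, Srxn1 and Sod3 with SB202190 held under all 16 alternatives. Centring each array on its median took the median change of all probe sets from -0.004 to 0.123 in LY294002 against DMSO. In LY294002 against UO126 that median went from 0.004 to 0.11. The centring left 0 members higher with UO126 and 3 with SB202190, 0 lower in LY294002 against UO126 and 2 lower in LY294002 against SB202190. It also gave 0.05 for Nqo1 and Sod2 (LY294002 against DMSO) and 0.10 for Gclc (LY294002 against UO126), reversing uncalled values. Of the list genes it left 2 higher and 1 lower with LY294002, 2 higher with UO126 and 0 lower with SB202190. Quantile normalization gave -0.01 for Sod1 and 2 members lower in UO126 against SB202190, and 4 list genes lower with LY294002. Fitting 2 groups alone gave 0 members and 1 list gene higher with UO126, 1 list gene lower with LY294002, 0 with SB202190, and 2 members lower in UO126 against SB202190. Without a filter, and without the variance trend, 1 member was lower in LY294002 against UO126, and without the trend 2 list genes were higher with UO126. A mean of 100 over all arrays left 1 list gene higher with LY294002. By the 1.4-fold ratio alone, 2 members were higher and 1 lower with UO126. With the replicate block, 2 members were higher and 1 lower with UO126, 2 list genes higher and 7 lower with LY294002, and 2 members lower in UO126 against SB202190, a pair whose numbers were not taken as paired. For all 15 arrays, deviations correlated most, on average, with same-numbered arrays of other groups. The block changed no other call on members beside those given.

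Without single arrays, members higher numbered 0 to 1 with UO126, 2 to 5 with SB202190, 0 to 1 in LY294002 against SB202190 and 0 to 1 in UO126 against SB202190, and members lower in LY294002 against UO126 numbered 0 to 2. List genes numbered 0 to 1 higher and 1 to 3 lower with LY294002, 1 to 3 higher with UO126, and 5 to 8 higher and 0 to 1 lower with SB202190. Uncalled values that crossed 0 were Sod1 with TSA (-0.13 to 0.22), UO126 (-0.04 to 0.31), SB202190 (-0.05 to 0.30) and in UO126 against SB202190 (-0.09 to 0.12), Sod2 with SB202190 (-0.05 to 0.12), Gclc in LY294002 against UO126 (-0.11 to 0.07), and with LY294002 Hmox1 (-0.13 to 0.26), Nqo1 (-0.32 to 0.13), Srxn1 (-0.03 to 0.23) and Txnrd1 (-0.04 to 0.11). Causes were not tested. With 3 arrays a group, signals under 50 carry little information on size.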
